A study of Mus musculus with 28 samples.

Results

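The nuclear genes of oxidative phosphorylation were followed in polyA RNA-seq of cultured neural stem cells and tissue cells from the mouse. A gene was a member when its symbol in the count table named a complex I subunit (Nduf followed by a, b, c, s or v and a number), one of the genes Sdha to Sdhd of complex II, a Uqcr gene of complex III, a Cox4 to Cox8 gene of complex IV or an Atp5 gene of complex V. The 7 symbols marked as pseudogenes by the letters -ps were left out. Cox6c2, annotated as a processed pseudogene but without that mark, stayed a member. This gave 84 members of the 28244 genes in the table, with 35 in complex I, 4 in complex II, 8 in complex III, 20 in complex IV and 17 in complex V. Membership rested on symbols alone and used no measured value, but the set was chosen with earlier results of these data known. Ndufa4 was grouped with complex IV, where its protein is now placed, and subunits with symbols of another form, such as Ndufab1, were not members.

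The respiratory chain sits in the inner mitochondrial membrane and passes electrons from NADH (complex I) and succinate (complex II) through coenzyme Q, complex III and cytochrome c to oxygen at complex IV, and complex V uses the resulting proton gradient to make ATP. Most subunits are encoded in the nucleus and made in the cytosol, while the mitochondrial genome encodes a small set of core subunits of every complex except complex II. Several complex IV subunits have a widely expressed gene and a second gene used in heart and skeletal muscle, lung or testis. Neural stem cells (NSCs) grown with growth factors are known to rely strongly on glycolysis and to raise respiration as they differentiate.

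The study derived NSC lines from peripheral tissues (pNSCs) and compared them with brain NSCs, with neural crest stem cells (NCSCs) and with cells of the tissue of origin. The labels place 28 samples in 11 groups and give C57BL/6 as the strain of all, whereas the study's methods state that transgenic mice were bred with CD1 or mixed CD1 and C3H animals. In the first set of groups, Tail-pNSC, Lung-pNSC, Brain-NSC, Tail and Lung had 2 replicates each. Their labels name no reporter, and their make-up matches the study's experiment with Nes-GFP mice, in which GFP is driven by Nestin elements and GFP+ cells of adult lung and postnatal tail were sorted and cultured. The Wnt1Cre-mTmG groups were Tail pNSCs, dorsal root ganglion (DRG) pNSCs and brain NSCs of postnatal mice, with 3 replicates each. In these mice Wnt1-Cre turns cells of neural crest descent from a red to a green membrane reporter, and the pNSCs came from cells that had stayed red. DRG NCSCs, also in 3 replicates, came from adult wild-type mice and were grown as neural crest cells. The Sox2-GFP knock-in groups were postnatal lung pNSCs, from GFP+ cells, and brain NSCs, with 3 replicates each, and the same 2 Lung samples served them as tissue. Adult mice were 4 to 6 weeks old and postnatal mice 1 to 5 days. The pNSC lines started from colonies picked by hand, usually clones, in NSC medium with EGF and bFGF, so a group may hold 1 clone, and how the Lung and Tail cells were handled before RNA extraction is not stated. The study calls the replicates biological replicates without stating whether they came from separate animals or from separate cultures of 1 line, and the p-values measure only the spread between these samples.

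Total counts per sample ran from 9808246 to 22637031, so 3 counts stood for 0.130 to 0.296 CPM, the counts scaled to a common library size. They averaged 1.06e+07 in Wnt1Cre-mTmG brain NSCs and 1.04e+07 in DRG pNSCs. In Wnt1Cre-mTmG Tail pNSCs and DRG NCSCs they averaged 2.12e+07 and 2.02e+07, so groups compared within that set differed in depth. Levels below are CPM scaled by TMM (edgeR's trimmed mean of M values) over all 28 samples, whereas fold changes come from fits scaled within a set. The log2 ratio of the levels therefore lay above the fitted log2 fold change by 0.08 in Tail-pNSC against Tail, above it by 0.03 in Lung-pNSC against Lung and at −0.06 from it in Tail against Lung, as medians over the widely expressed members, and within 0.02 of it elsewhere. Markers of the labelled cells were checked first. All 6 NSC markers were at 1 CPM or more in every NSC and pNSC group, where their sum ran from 2331 to 3562 CPM, against 80.7 to 85.1 in Tail and 292 to 317 in Lung. The 6 neural crest and Schwann cell markers summed to 4255 to 4361 CPM in DRG NCSCs and to at most 72.9 CPM in any NSC or pNSC sample. Lung replicates held lung epithelial (28050 to 28722 CPM), endothelial (3370 to 3453) and leukocyte (4201 to 4227) markers, and Tail replicates held fibroblast (72271 to 74180), cartilage (44321 to 45479) and keratinocyte (5091 to 5204) markers. These were bulk samples, in which fewer cells of a type and less RNA per cell cannot be told apart. DRG NCSC replicate 3 stood apart from its group: its squared differences per gene from replicates 1 and 2 were 5.99 and 6.39 times those of counting error, against 1.71 between replicates 1 and 2, so counts and named genes that rest on this group are given with and without it.

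The members have been studied as targets of the transcription factors NRF1, the ETS factor GABP and YY1, and 68 of the 84 had a promoter in the RefSeq table used (GRCm38.p6, 250 bases before to 50 after the start). The letters GCGCNTGCG, the core of the NRF1 motif, were found on either strand in 24 of them (35.3%), against 12.7% of 13140 promoters of tested genes and 7.12% of all 27025. The ETS letters CCGGAAG were in 17 (25%, against 16.6% and 9.93%), the YY1 letters AAGATGGC in 10 (14.7%, against 4.35% and 3.19%) and any of the 3 in 42 (61.8%, against 29.1% and 17.9%). By complex, the NRF1 letters were in 9 of 15 promoters of complex V, 3 of 5 of complex III, 2 of 3 of complex II, 9 of 31 of complex I and 1 of 14 of complex IV. The YY1 letters were in 7 promoters of complex I and 3 of complex V. A match describes letters and is neither a shown binding site nor a cause of any level below. A promoter can hold more than 1 motif, and the NRF1 letters overlap their own reverse complement in some promoters. The windows below lie upstream of the annotated start of both RefSeq and GENCODE, with the motif in capitals and 25 bases on each side, in the direction of the gene, and were chosen to show 1 or 2 members of each complex. All 6 genes are on the minus strand of GRCm38.p6. Ndufb4 (chr16:37654525-37654583) and Ndufs5 (chr4:123718250-123718308) belong to complex I, Sdhd (chr9:50603894-50603952 and chr9:50603864-50603920) to complex II, Uqcr11 (chr10:80406856-80406912) to complex III, Cox6a1 (chr5:115349087-115349145) to complex IV and Atp5h (chr11:115420026-115420084) to complex V.
Ndufb4, NRF1 letters: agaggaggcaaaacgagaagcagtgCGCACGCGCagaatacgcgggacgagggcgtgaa
Ndufs5, NRF1 letters: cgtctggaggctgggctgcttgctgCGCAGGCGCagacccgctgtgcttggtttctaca
Sdhd, NRF1 letters: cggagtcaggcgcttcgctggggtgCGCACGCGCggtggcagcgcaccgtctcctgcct
Sdhd, ETS letters: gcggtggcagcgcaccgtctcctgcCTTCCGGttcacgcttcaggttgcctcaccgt
Uqcr11, ETS letters: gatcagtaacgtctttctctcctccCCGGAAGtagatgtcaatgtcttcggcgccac
Cox6a1, NRF1 letters: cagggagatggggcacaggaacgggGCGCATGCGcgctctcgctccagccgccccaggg
Atp5h, NRF1 letters: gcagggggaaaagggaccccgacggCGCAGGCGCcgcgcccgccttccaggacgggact

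**Figure D1:**
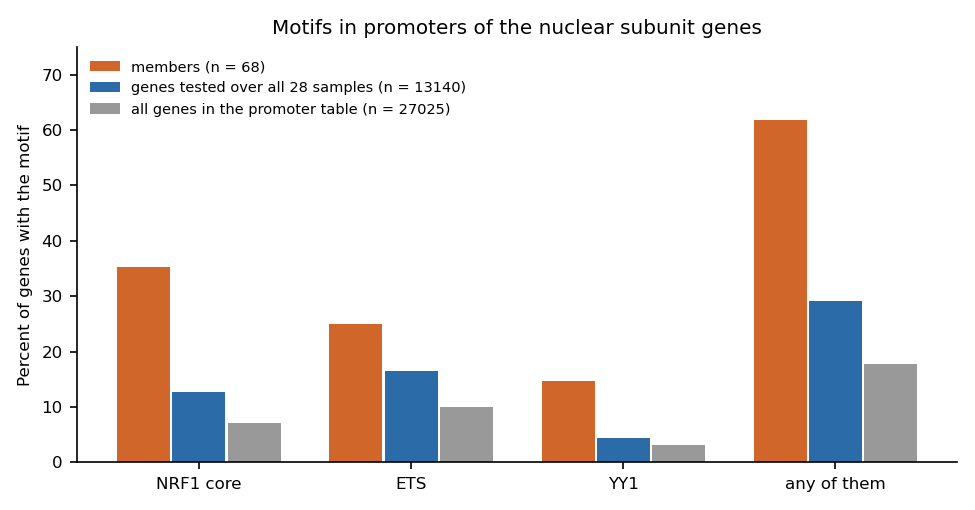
Percent of genes whose promoter holds the NRF1, ETS or YY1 letters, for 68 members, 13140 tested genes and 27025 genes with a promoter. The bars start at 0, and the members' bar is the tallest for each motif (35.3%, 25% and 14.7%).

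The 84 members together took 0.498% to 1.45% of a sample's counts. The share was lowest in Lung (0.498% and 0.507%), Tail (0.702% and 0.700%) and DRG NCSCs (0.723%, 0.695% and, in replicate 3, 0.879%), and it lay between 1.15% and 1.45% in all other samples. In ascending order the other group means were 1.16% ± 0.0138 (SD, n = 3) in Sox2-GFP brain NSCs, 1.17% ± 0.00302 (n = 2) in Tail-pNSC, 1.28% ± 0.0199 (n = 3) in Wnt1Cre-mTmG Tail pNSCs and 1.32% ± 0.0115 (n = 3) in DRG pNSCs. Then came 1.36% ± 0.00553 (n = 3) in Sox2-GFP lung pNSCs, 1.37% ± 0.0121 (n = 2) in Brain-NSC, 1.41% ± 0.00930 (n = 3) in Wnt1Cre-mTmG brain NSCs and 1.43% ± 0.0156 (n = 2) in Lung-pNSC. Neighbours whose replicates overlapped were Tail and DRG NCSCs, Sox2-GFP brain NSCs and Tail-pNSC, and no pNSC or NSC replicate fell to the level of any tissue or NCSC replicate. Complex V held the most counts, 0.186% and 0.193% in Lung and 0.634% and 0.624% in Lung-pNSC, and its catalytic subunit genes Atp5b and Atp5a1 alone made up 19.5% to 26.3% of the members' counts in a sample.

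**Figure D2:**
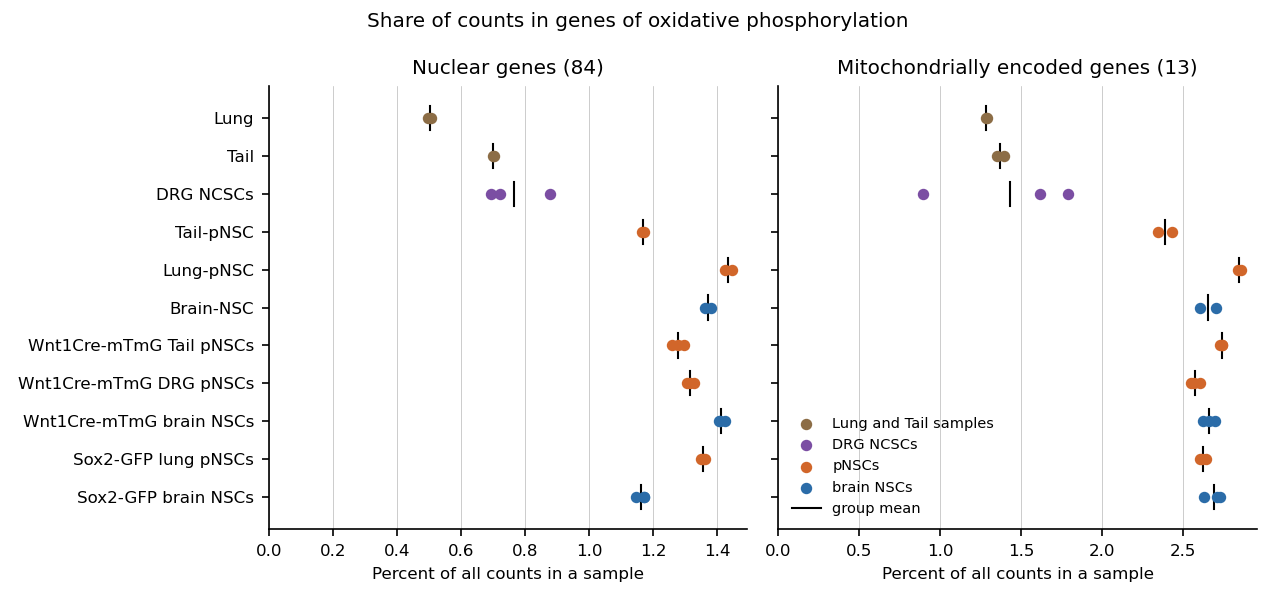
Percent of all counts of a sample in the 84 nuclear genes and in the 13 mitochondrially encoded subunit genes, with a point per sample and a line at each group's mean. Lung, Tail and DRG NCSCs sit lowest in both panels, and DRG NCSC replicate 3 is the highest of its group for the nuclear genes (0.879%) and the lowest for the mitochondrial genes (0.890%).

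Of the members, 76 were at 10 CPM or more in every group. The 8 others were grouped as alternative complex IV isoforms, among them the annotated pseudogene Cox6c2, and are described separately. Lung had the lowest group mean of 70 of these 76, DRG NCSCs of 3 and Tail of 3. The highest mean was in Lung-pNSC for 25, in Wnt1Cre-mTmG Tail pNSCs for 20, in Wnt1Cre-mTmG brain NSCs for 15 and in Brain-NSC for 10. The ratio of the highest to the lowest group mean had a median of 2.78 over the 76 genes, and it was smallest for the complex I accessory subunit gene Ndufb10 (1.49) and largest for Ndufc2 (5.22), another accessory subunit gene of the membrane arm. Of the 84 members, 81 passed the count filter in the first and Sox2-GFP sets and 79 in the Wnt1Cre-mTmG set, and every one of the 76 was among them. All tests across genes were edgeR quasi-likelihood tests, two-sided, with Benjamini-Hochberg adjustment over all genes tested in a comparison. A gene was called at an adjusted p under 0.05. Genes named for the largest changes of a comparison were picked among called members whose groups did not overlap. Their lack of overlap below was therefore set by that choice and is no further support. Comparisons that share a group, such as those against Brain-NSC, DRG NCSCs or the 2 Lung samples, are not independent of each other.

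Lung pNSCs were compared with Lung to ask how lines differ from cells of the tissue they came from. All 76 widely expressed members were higher in Lung-pNSC, and with the 5 tested isoforms the count was 76 higher and 5 lower of 81, where 38.9% of all 16948 genes were called higher and 47.2% lower. At 2-fold or more, 55 were higher and 5 lower, where 20.2% and 34.9% of all genes were. The 5 were the isoforms, and for some of them the filter set the direction, as described below. The members' median log2 fold change was 1.25, against −0.15 over all genes. In complex V all 17 were higher (median 1.51), in complex III all 8 (1.49), in complex II all 4 (1.21), in complex I all 35 (1.05) and in complex IV 12 of 17 (1.34).

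The complex I gene Ndufc2 (chr7:97400003-97407802, plus strand) stood at 50.5 and 51.9 CPM in Lung and at 276 and 259 CPM in Lung-pNSC. It had the largest rise of the comparison, 2.35 on the log2 scale (SE 0.04, adjusted p too small to be represented). Atp5o, which encodes the stalk subunit OSCP of complex V, had 66.2 and 70.3 CPM in Lung and 307 and 296 in Lung-pNSC (log2 fold change 2.11, SE 0.04, adjusted p again too small to be represented). Both genes kept the Lung replicates far below the Lung-pNSC replicates, with no overlap. Cox7c, a small complex IV subunit gene, went from 21.1 and 20.3 CPM to 92.5 and 89.4 (2.10, SE 0.07, edgeR adjusted p = 9.62e-225). Atp5b, the catalytic beta subunit gene and the most abundant member, rose from 530 and 544 CPM to 2214 and 2152 CPM (SE of the log2 fold change 0.03). Uqcrfs1, which encodes the Rieske iron-sulfur protein of complex III, rose from 60.8 and 62.4 to 212 in each replicate. Smaller rises were those of Sdhb, the iron-sulfur subunit of complex II (1.00, edgeR adjusted p = 1.02e-121, from 77.6 and 74.0 CPM to 160 and 150), and Cox4i1, the widely expressed subunit 4 gene (1.34, adjusted p = 4.94e-297).

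Sox2-GFP lung pNSCs were compared with the same 2 Lung samples, and here the experiment and the group cannot be told apart, because the Lung samples belong to the first set. If that set is the Nes-GFP experiment, Lung was adult and these lines postnatal, so age cannot be told apart either. All 76 widely expressed members were again higher and the 5 isoforms lower, where 42.3% and 48.5% of 16234 genes were called. At 2-fold or more, 51 were higher and 5 lower, against 21.3% and 34.9% of all genes, and the median was 1.13, against −0.12 over all genes. Cox7c had 90.2, 81.2 and 91.6 CPM in the 3 Sox2-GFP lung pNSC replicates (2.06, SE 0.05). Atp5o had 266, 269 and 271 CPM (1.96, SE 0.03). Atp5g3, 1 of 3 genes for the membrane ring subunit c of complex V, had 435, 442 and 439 CPM against 119 and 113 in Lung (1.90, SE 0.03). All replicates of these 3 genes lay above both Lung replicates, and their adjusted p was too small to be represented.

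The tail comparison gave smaller differences. In Tail-pNSC against Tail, 63 of 81 members were higher and 8 lower, where 36.9% and 46% of all genes were called, with a median of 0.47 against −0.16 over all genes. Only 6 members rose and 5 fell by 2-fold or more, against 14.1% and 32.6% of all genes, and the 5 were the complex IV isoforms. By complex, 16 of 17 rose in complex V (median 0.55), 4 of 4 in complex II (0.71), 7 of 8 in complex III (0.48), 24 of 35 in complex I (0.38) and 12 of 17 in complex IV (0.34).

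Ndufc2 again had the largest rise. It had 63.2 and 63.0 CPM in Tail and 197 and 194 in Tail-pNSC (1.55, SE 0.04, edgeR adjusted p = 8.09e-290). Cox5a, a complex IV subunit gene, had 31.7 and 33.2 CPM in Tail and 68.4 and 79.9 in Tail-pNSC (1.11, adjusted p = 6.03e-71). Sdha, the flavoprotein and catalytic subunit gene of complex II, went from 184 and 188 CPM to 428 and 414 (1.09, edgeR adjusted p = 2.05e-208). None of these 3 overlapped between the groups. The 3 falls outside the isoforms were smaller. Atp5e, the epsilon subunit gene of complex V, had 97.2 and 89.4 CPM in Tail and 69.4 and 71.0 in Tail-pNSC (log2 fold change −0.50, adjusted p = 1.72e-23 by edgeR). Ndufa6 had −0.21 (adjusted p = 0.00117) and lost its call when scaled by total counts (−0.01, adjusted p = 0.834), and Ndufa11 had −0.19 (adjusted p = 0.0209), which turned to 0.0021 (adjusted p = 0.991) with that scaling. Uqcrc1, a core protein gene of complex III, did not pass, with 216 and 213 CPM in Tail and 220 and 231 in Tail-pNSC. Its log2 fold change in the fit, with its own scaling, was −0.01 (adjusted p = 0.818, edgeR).

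Between the tissue cells, 70 of 81 members were higher in Tail than in Lung and 5 lower, where 41.4% and 40.7% of all genes were called, with a median of 0.54 against 0.01 over all genes. If the first set is the Nes-GFP experiment, Tail was postnatal and Lung adult, so age and tissue cannot be told apart here. At 2-fold or more 4 were higher and 4 lower, against 20.5% and 22.9% of all genes. All 17 members of complex V and all 8 of complex III were higher in Tail, with 30 of 35 of complex I and 12 of 17 of complex IV. Atp5b had 1086 and 1082 CPM in Tail against 530 and 544 in Lung (1.07, SE 0.03, edgeR adjusted p = 1.26e-316). Cox7c (1.19, adjusted p = 1.06e-57) and Cox7b (1.15, adjusted p = 6.47e-113, with 94.2 and 97.5 against 44.2 and 46.02 CPM) were the 2 largest rises. Sdha went the other way, with 184 and 188 CPM in Tail and 247 and 234 in Lung (−0.31, edgeR adjusted p = 2.11e-17), and its replicates did not overlap. Skeletal muscle markers summed to 458 to 473 CPM in Tail (12 of 13 at 1 CPM or more, highest Acta1) and to 36.1 to 36.5 in Lung. Their part in these differences was not tested.

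Against brain NSCs the members differed little in size. In Tail-pNSC against Brain-NSC, 53 of 81 were lower and 2 higher, where 23.4% and 25.7% of all genes were called, and the median was −0.15. No member reached 2-fold in either direction, against 4.31% of all genes higher and 6.59% lower. All 4 complex II genes were lower, 7 of 8 of complex III, 23 of 35 of complex I, 10 of 17 of complex V and 9 of 17 of complex IV. Sdhc, a membrane anchor gene of complex II, had 164 and 171 CPM in Tail-pNSC and 310 and 300 in Brain-NSC (−0.86, edgeR adjusted p = 1.4e-126). Cox5b of complex IV had 79.6 and 78.9 against 126 and 133 CPM (−0.71, adjusted p = 5.41e-54). Ndufa10 of complex I had 135 and 133 against 217 in each Brain-NSC replicate (−0.69, adjusted p = 2.82e-77). The replicates of these 3 did not overlap. The 2 rises were small: Atp5g1 (0.23, adjusted p = 0.000116), another gene for subunit c, and Cox7a2l (0.13, adjusted p = 0.0102), which encodes a factor of respiratory supercomplexes. Cox7a2l lost its call without Tail-pNSC replicate 1 (0.11, adjusted p = 0.105) or Brain-NSC replicate 1 (0.12, adjusted p = 0.0629).

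In Lung-pNSC against Brain-NSC, 27 members were higher and 9 lower, where 18.7% and 21.6% of all genes were called, and 45 were not called. With RLE scaling the split was 33 and 5, all 28 samples in 1 fit gave 20 calls, and 23 were left without Lung-pNSC replicate 1. The shares of all genes given here belong to the main fit. The median was 0.06, and the isoform gene Cox6b2 was the 1 member past 2-fold (lower, where 4.15% of all genes were and 4.56% were higher). Ndufb4, an accessory complex I gene whose window is printed above, had 42.8 and 44.2 CPM in Lung-pNSC and 31.4 and 30.3 in Brain-NSC (0.48, SE 0.07, edgeR adjusted p = 5.61e-10). Uqcr10, a small complex III subunit gene, had 137 and 132 against 102 and 106 CPM (0.36, adjusted p = 4.2e-16). Ndufa12 of complex I went down, with 72.9 and 62.4 against 94.4 and 91.6 CPM (−0.46, adjusted p = 2.39e-17). The groups did not overlap for these 3. Ndufb2 (0.39, adjusted p = 0.000509) lost its call without Brain-NSC replicate 1 (0.26, adjusted p = 0.0846), and Atp5e (−0.34) and Cox5a (−0.23) lost theirs with all 28 samples in the fit (adjusted p = 0.137 and 0.130).

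Sox2-GFP lung pNSCs had 47 members higher and 13 lower than Sox2-GFP brain NSCs, where 32.7% and 32.8% of all genes were called, and with upper-quartile scaling the split was 39 and 19. The median was 0.12, and the 3 members past 2-fold were isoforms, all lower, where 9.99% of all genes were and 5.76% were higher. Complex V had 14 of 17 higher and none lower, complex III 7 of 8 and complex II 4 of 4, while complex I had 12 higher and 9 lower. Ndufa4 had 262, 269 and 271 CPM in lung pNSCs and 165, 170 and 171 in brain NSCs (0.66, SE 0.02, edgeR adjusted p = 2.05e-171). Atp5a1, the alpha subunit gene of complex V, had 1418, 1425 and 1445 against 998, 967 and 997 CPM (0.53, adjusted p = 1.95e-224). Atp5g1 had 52.8, 55.3 and 52.4 against 35.2, 32.2 and 35.2 CPM (0.65, adjusted p = 2.36e-45). The 3 genes were higher in every lung replicate. Falls were small, with Cox7a2l at −0.29 (adjusted p = 5.12e-22), Ndufc2 at −0.23 (adjusted p = 4.85e-20) and Ndufa6 at −0.21 (adjusted p = 3.87e-07).

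In Wnt1Cre-mTmG Tail pNSCs against Wnt1Cre-mTmG brain NSCs, 19 of 79 members were higher and 28 lower, where 33.1% and 32.4% of 14448 genes were called, and the median was −0.02. The 4 members past 2-fold were all higher (9.16% of all genes were, and 9.05% lower): 3 isoforms and Ndufs5, whose count has a limit given below. Atp5a1 had 870, 864 and 881 CPM in Tail pNSCs and 1386, 1386 and 1392 in brain NSCs (−0.67, SE 0.05, edgeR adjusted p = 5.62e-09). Atp5b, its partner in the catalytic head, did not pass, with 1977, 1958 and 1991 against 1903, 1882 and 1925 CPM (0.06, adjusted p = 0.198). Atp5j, coupling factor 6 of the stalk, had 114, 109 and 108 against 169, 165 and 171 CPM (−0.61, adjusted p = 6.93e-10). Every Tail pNSC replicate lay below every brain replicate for Atp5a1 and Atp5j. Ndufv3, an accessory gene of the flavoprotein part of complex I, had 97.6, 101.3 and 100.4 CPM in Tail pNSCs, 62.4, 63.4 and 67.4 in brain NSCs and 47.6, 50.5 and 51.0 in DRG pNSCs (Tail against brain 0.63, adjusted p = 1.03e-08). Atp5mpl, a small membrane subunit gene of complex V, was lower (−0.67, adjusted p = 0.000835) and Ndufs7, a core iron-sulfur subunit gene of complex I, higher (0.39, adjusted p = 7.91e-05).

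In DRG pNSCs against Wnt1Cre-mTmG brain NSCs, 1 member was higher and 18 lower, where 23.4% and 22.6% of all genes were called, and none past 2-fold (3.12% of all genes higher, 6.41% lower). The median was −0.10. A fit to these 2 groups alone called 48 members, and leaving out a replicate gave 10 to 17, with 10 without brain NSC replicate 1, 11 without DRG pNSC replicate 3 and 12 without brain NSC replicate 3. The shares of all genes given here belong to the main fit and cannot be set beside these counts. Ndufv3 was lower (−0.38, edgeR adjusted p = 4.65e-05), as was Uqcr11 of complex III, with 89.4, 84.3 and 88.0 against 105, 99.5 and 110 CPM (−0.27, adjusted p = 0.00134). Cox6b1 (−0.26, adjusted p = 0.0275), the widely expressed subunit 6b gene, lost its call in 5 of 6 fits that left out a replicate (adjusted p = 0.0531 to 0.0911). The 1 gene called higher was Ndufs5.

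The pNSC effect was also compared between sets in a fit of all 28 samples. For lung, the difference between Sox2-GFP and first-set effects passed for 24 members in 1 direction and 12 in the other (24.6% and 22.2% of 17393 genes), and the split was 15 and 18 with DESeq2 and 20 and 19 with upper-quartile scaling. For tail, the Wnt1Cre-mTmG effect was above that of the first set for 29 members and below it for 16 (24.5% and 24.2%). Atp5a1 differed in each, by 0.53 for lung (adjusted p = 1.65e-09) and by −0.54 for tail (adjusted p = 7.81e-10, edgeR). Ndufv3 differed by 0.89 for tail (adjusted p = 1.27e-13). These differences include whatever else differs between the experiments, which cannot be told apart from the reporter line.

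DRG NCSCs, the neural crest line, were the cultured group with the low levels. They came from adult wild-type mice and were grown as neural crest cells, whereas the Wnt1Cre-mTmG groups came from postnatal mice. Cell type, age, genotype and culture therefore cannot be told apart in comparisons with them. Against Wnt1Cre-mTmG brain NSCs, 67 of 79 members were lower and 2 higher, where 39.7% and 42% of all genes were called, and the median was −0.69 against 0.01 over all genes. At 2-fold or more, 13 were lower and 1 higher, against 14.8% and 22.1%. The falls covered 28 of 35 members of complex I (median −0.57), 3 of 4 of complex II (−0.79), all 8 of complex III (−0.82), 13 of 15 tested of complex IV (−0.91) and 15 of 17 of complex V (−0.74). In replicate 3, 58 of the 76 widely expressed members were at their highest of the group and 14 at their lowest, with a median ratio of 1.19 to the mean of replicates 1 and 2. Without it, 75 members were lower and 2 higher, where 41.4% and 43.5% of all genes were. Of these members, 22 and 1 differed by 2-fold or more. There is no share of all genes at that limit to set beside these counts, so nothing is read from them. The 2 higher genes were the isoforms Cox6a2 and Cox7a1, described below with the other isoforms. By complex, without replicate 3, 33 of 35 fell in complex I (median −0.69), all 4 in complex II (−0.85), all 8 in complex III (−0.90), 13 of 15 in complex IV (−0.95) and all 17 in complex V (−0.82), where 41.4% of all genes were lower.

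Ndufc2 had 73.3, 68.3 and 95.7 CPM in the NCSC replicates and 239, 234 and 242 in brain NSCs (−1.58, SE 0.08, edgeR adjusted p = 6.58e-12). Ndufa12 had 29.0, 35.03 and 22.9 against 88.7, 84.2 and 85.9 CPM (−1.55, adjusted p = 4.87e-11). Cox8a, the widely expressed subunit 8 gene, had 84.9, 87.3 and 84.5 against 243, 249 and 251 CPM (−1.52, adjusted p = 1.18e-16). Atp5b had 931, 916 and 1008 against 1903, 1882 and 1925 CPM (−0.99, adjusted p = 9.47e-14). NCSC replicates were below all brain replicates for these 4, and without replicate 3 the log2 fold changes were −1.74, −1.42, −1.51 and −1.03 in the same order. Sdhb did not pass, with 135, 126 and 200 CPM in NCSCs, replicate 3 the highest, and 142, 150 and 153 in brain NSCs (0.06, adjusted p = 0.647). Without replicate 3 it was lower in NCSCs (−0.17, edgeR adjusted p = 5.78e-06). Atp5e also stood apart in replicate 3, with 74.6, 69.0 and 160 CPM, and was at −0.66 without it.

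Both Wnt1Cre-mTmG pNSC groups were compared with the same DRG NCSCs, where again cell type, age, genotype and culture cannot be told apart. Tail pNSCs had 67 members higher and 1 lower, where 41.3% and 42.3% of all genes were called, with a median of 0.62. DRG pNSCs had 65 higher and 3 lower (40.8% and 41.6% of all genes), with a median of 0.61. At 2-fold or more the counts were 15 and 0 for Tail pNSCs (15.3% and 22.6% of all genes) and 10 and 1 for DRG pNSCs (15.1% and 23.3%). Without NCSC replicate 3 the called members numbered 77 and 1 for Tail pNSCs, where 43% and 43.7% of all genes were called. For DRG pNSCs they numbered 73 and 3, where 42.3% and 42.9% were. At 2-fold or more they numbered 20 and 0, and 18 and 1. There is no share of all genes at that limit to set beside these counts either, so nothing is read from them. Ndufa12 had the largest rise among well-expressed members in each, with 88.6, 85.1 and 93.3 CPM in Tail pNSCs (1.60, edgeR adjusted p = 1.53e-11) and 87.4, 88.3 and 90.5 in DRG pNSCs (1.59, adjusted p = 3.29e-11). Without NCSC replicate 3 these were 1.47 and 1.46. Atp5g2, a further subunit c gene, had 87.6, 91.0 and 88.0 CPM in DRG pNSCs and 34.5, 37.6 and 27.9 in NCSCs (1.40, adjusted p = 1.69e-11, and 1.29 without replicate 3). The gene lower in Tail pNSCs than in NCSCs was Ndufb2, an accessory complex I gene, with 13.7, 14.4 and 13.8 against 16.6, 17.5 and 15.7 CPM (−0.26, adjusted p = 0.00551, and −0.29 without replicate 3). Of the 3 lower in DRG pNSCs, Ndufv3 was the well-expressed one (−0.19, adjusted p = 0.00492, and −0.18 without replicate 3), and it lost its call when scaled by total counts (−0.11, adjusted p = 0.0711).

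In the comparisons of pNSCs with Lung or Tail, the tested alternative complex IV isoforms were lower and most other members higher. Of the 8 genes in this group, Cox6c2 (annotated as a processed pseudogene), Cox7b2 and Cox8c passed no filter. The other 5 did. Cox4i2, Cox6a2 and Cox8b passed only through the groups where they were high, so they had to differ. Their direction against Lung or Tail was set by the filter, and nothing is read from it. Cox6b2 and Cox7a1 also had counts in other groups, Cox6b2 with means of 2.01 CPM in Tail-pNSC and 2.60 in Brain-NSC. Ratios of all 5 are given as counts with exact 95% intervals that cover counting error only. Cox4i2 (chr2:152754173-152765037, plus strand), the isoform of subunit 4 known from lung, had 58.3 and 59.9 CPM in Lung, 15.2 and 14.4 in Tail, 0.0571 and 0.101 in Tail-pNSC and 0 in both Lung-pNSC replicates. It was therefore high in the tissue cells and next to absent from the lines. The Lung level was at least 767-fold that of Lung-pNSC (against 3 counts over the group), 959 times that of Sox2-GFP lung pNSCs (interval 374 to 3521) and 3.98 times that of Tail (3.603 to 4.395). Levels were also divided by exon length, the union of all annotated exons of a gene (1550 bases for Cox4i1, 788 for Cox4i2). So divided, Cox4i2 made up 42.2% ± 1.17 (SD, n = 2) of the Cox4i1 and Cox4i2 total in Lung and 10.1% ± 0.0684 (n = 2) in Tail. It made up 0.187% ± 0.0486 (n = 3) in DRG NCSCs and at most 0.0482% in any NSC or pNSC group. These shares depend on the length used. In Lung, Cox4i1 stood at 103 CPM per kb and Cox4i2 at 74.99, and without the length at 159 and 59.1 CPM.

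Cox6a2 (chr7:128205435-128206387, minus strand), which overlaps Itgad on the opposite strand, encodes the muscle isoform of subunit 6a. It had 11.96 and 13.28 CPM in Lung and 1.57 and 2.11 in Tail. Among the lines it was at 7.82, 9.66 and 8.60 CPM in Wnt1Cre-mTmG Tail pNSCs and at 3.69, 5.58 and 4.47 in Sox2-GFP brain NSCs, and at or below 0.583 CPM in every other sample. Wnt1Cre-mTmG Tail pNSCs held 560 counts against 1 in their brain NSCs, a ratio of 290 (51.8 to 11464), and Sox2-GFP brain NSCs 33.8 times the level of the lung pNSCs (17.5 to 74.6). The gene was thus high in 1 pNSC group and 1 brain NSC group but in neither of the groups it was compared with. Cox6b2, an isoform known from testis, was highest in Wnt1Cre-mTmG Tail pNSCs (13.8, 13.6 and 13.7 CPM), Lung (13.05 and 11.72) and Tail (10.7 and 9.64), and it lay between 0.112 and 5.90 CPM elsewhere. Tail pNSCs had 2.74 times the level of Wnt1Cre-mTmG brain NSCs (2.32 to 3.25), and Brain-NSC 6.36 times that of Lung-pNSC (3.74 to 11.5).

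Cox7a1 and Cox8b, muscle isoforms of subunits 7a and 8, stayed low throughout. Cox7a1 had 4.40 and 3.804 CPM in Lung and 2.97, 1.84 and 2.01 in Wnt1Cre-mTmG Tail pNSCs, and was below 1.64 CPM in every other sample. Cox8b had 4.40 and 3.24 CPM in Lung and 1.57 and 1.02 in Tail, and 0 in all 12 samples of the Wnt1Cre-mTmG set. Lung exceeded Lung-pNSC 8.04-fold for Cox7a1 (5.02 to 13.6) and 37.7-fold for Cox8b (14.4 to 140). Heart muscle markers moved with these genes in Lung: all 8 were at 1 CPM or more there, with a sum of 919 to 937 CPM led by Myh6, against 42.4 to 45.9 in Tail. Smooth muscle markers summed to 528 to 553 CPM in Lung. In Wnt1Cre-mTmG Tail pNSCs, where Cox6a2 was high, heart markers summed to 6.84 to 7.82 CPM and skeletal muscle markers to 13.2 to 14.1, of which Myh8 was 12.6. Myh8 also averaged 15.8 CPM in Tail-pNSC. The fibroblast markers Col3a1, Col1a1 and Col1a2 averaged 191, 102 and 67.1 CPM in Wnt1Cre-mTmG Tail pNSCs. In the other NSC and pNSC groups they reached at most 15.1, 2.82 and 3.45. Of the smooth muscle markers, Myh11 averaged 16.2 CPM there, against at most 1.44 in those other groups. Acta2 averaged 41.8 CPM in Wnt1Cre-mTmG Tail pNSCs and 46.1 in Tail-pNSC. The part of these markers in the isoform levels was not tested.

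**Figure D3:**
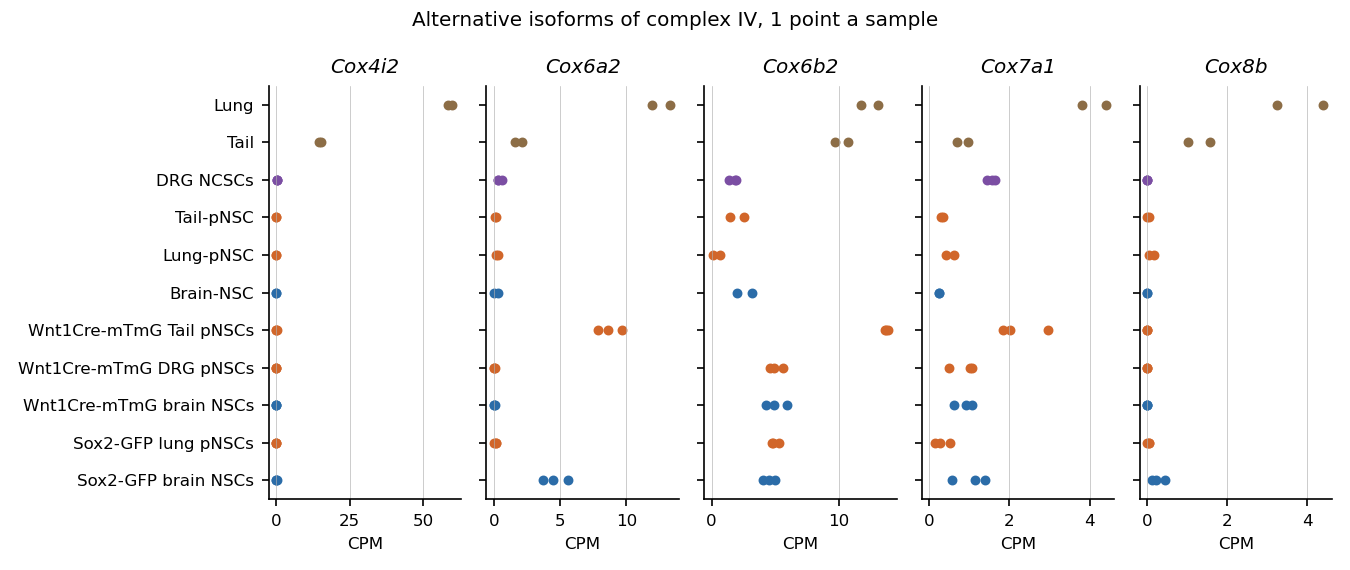
Level in CPM of Cox4i2, Cox6a2, Cox6b2, Cox7a1 and Cox8b in each of the 28 samples by group. Lung is highest for Cox4i2 (58.3 and 59.9), Cox6a2, Cox7a1 and Cox8b, while Wnt1Cre-mTmG Tail pNSCs stand with the tissue cells for Cox6a2 and Cox6b2.

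Ndufs5 (chr4:123712710-123718202, minus strand), an accessory subunit gene of complex I, was called in every comparison with Wnt1Cre-mTmG brain NSCs. Another row of the table holds a copy of part of it. BC002163, a processed pseudogene on chromosome 16, matches 46.9% of the Ndufs5 transcript at 99.4% identity. Whether the counting split reads between them was not tested. In Wnt1Cre-mTmG brain NSCs Ndufs5 had 16.4, 16.8 and 15.5 CPM and BC002163 had 19.7, 22.2 and 19.7. In DRG pNSCs the values were 23.1, 23.9 and 24.0 for Ndufs5 and 9.40, 12.4 and 9.23 for BC002163, and in DRG NCSCs 13.2, 11.8 and 13.1 against 6.44, 9.08 and 3.79. In the other 8 groups BC002163 stayed at or below 0.223 CPM, among them the Tail pNSCs of the same set, where Ndufs5 had 36.9, 38.1 and 39.0. The copy therefore took 55.8% ± 1.24 (SD, n = 3) of the joint level in brain NSCs, 30.3% ± 3.41 (n = 3) in DRG pNSCs and 32.9% ± 10.5 (n = 3) in NCSCs, and less than 1% elsewhere. Why it had such counts in these groups and not in the others was not tested.

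Adding both rows changed the calls. For Tail pNSCs against brain NSCs, Ndufs5 alone had a log2 fold change of 1.23 (edgeR adjusted p = 2.67e-11) and the sum 0.05 (adjusted p = 0.521), with joint means of 38.0 and 36.8 CPM. For DRG pNSCs against brain NSCs, 0.54 (adjusted p = 1.16e-05) became −0.11 (adjusted p = 0.240). For NCSCs against brain NSCs the fall grew from −0.34 (adjusted p = 0.000433) to −0.92 (adjusted p = 3.23e-09), or from −0.36 to −0.84 without NCSC replicate 3. In all, 35 members have a stretch of at least 100 bases with 95% identity or more in another gene's transcript, and 36 overlap another gene on either strand. Whether the counting used strand is not given in the sources used here, so reads of overlapping genes may be mixed.

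**Figure D4:**
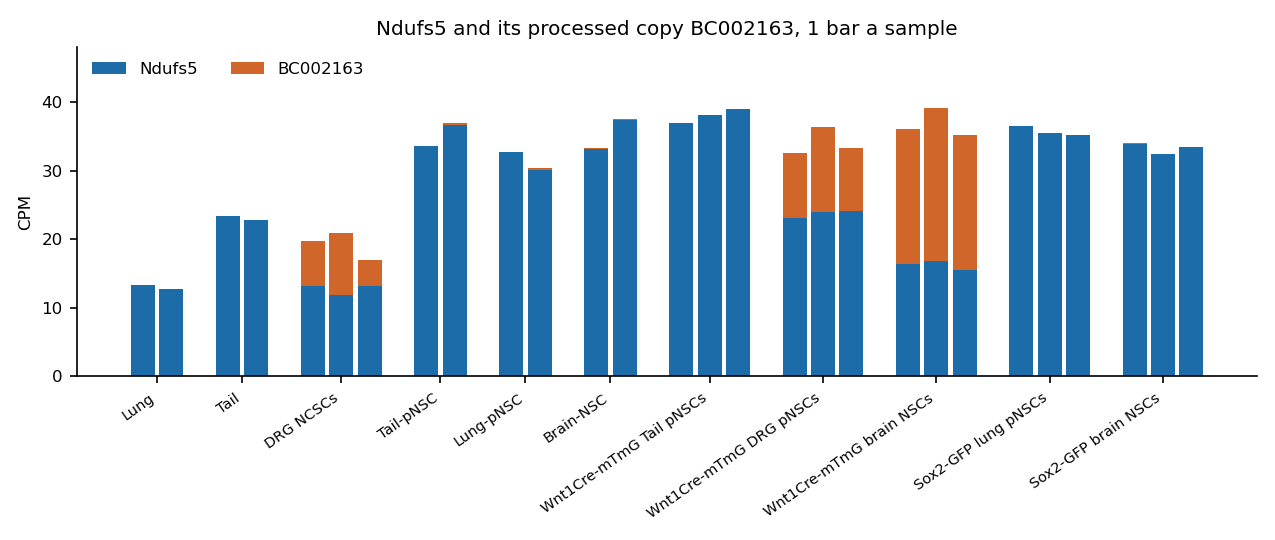
Stacked level in CPM of Ndufs5 and its copy BC002163 in each of the 28 samples, with bars starting at 0. The copy is visible in Wnt1Cre-mTmG brain NSCs, DRG pNSCs and DRG NCSCs, and the joint height of the brain NSC bars (35.2 to 39.1 CPM) is near that of the Tail pNSCs (37.0 to 39.0).

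Other genes of the pathway were read from fixed lists, which were chosen with earlier results of these data known. Their counts stand against the shares of all genes called: 38.9% higher and 47.2% lower in Lung-pNSC against Lung, 36.9% and 46% in Tail-pNSC against Tail, 23.4% lower in Tail-pNSC against Brain-NSC, and 42% higher and 39.7% lower in NCSCs against brain NSCs. Of 13 mitochondrially encoded subunit genes, 11 were tested, 7 were at 100 CPM or more in every group and 6 were under 15 CPM in all. Their joint share of counts was 1.28% and 1.29% in Lung, 1.35% and 1.39% in Tail, 1.62%, 1.79% and 0.890% in DRG NCSCs and 2.35% to 2.86% in every other sample. In Lung-pNSC against Lung all 11 were higher (median 0.94), in Tail-pNSC against Tail 8 were higher and none lower (0.53), and in NCSCs against brain NSCs 10 were lower (−0.74), or 9 of 10 tested without NCSC replicate 3 (−0.44). Cytochrome b, mt-Cytb, was higher in Lung-pNSC than in Lung by 1.55 (SE 0.02). Assembly factors, which help to build the complexes, had 32 of 44 higher and 4 lower in Lung-pNSC against Lung (median 0.66), 25 and 7 in Tail-pNSC against Tail, and 3 and 30 in NCSCs against brain NSCs (−0.41), or 3 and 33 without replicate 3. The complex I assembly factor gene Ndufaf2 averaged 21.4 CPM in Lung-pNSC and 5.31 in Lung (edgeR adjusted p = 7.75e-55). Of 14 genes for cytochrome c and coenzyme Q synthesis, 9 were higher and 4 lower in Lung-pNSC against Lung. Cycs, cytochrome c, rose there by 2.15 (adjusted p = 3.67e-137), while Coq8a, a kinase-like factor of coenzyme Q synthesis, was at −2.47 (adjusted p = 7.68e-65).

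The tricarboxylic acid cycle genes, which supply NADH and succinate, had 12 of 13 higher and 1 lower in Lung-pNSC against Lung (median 1.33), 11 and 1 in Tail-pNSC against Tail (0.83), and 0 and 12 in NCSCs against brain NSCs, with replicate 3 (−1.21) and without it (−1.23). Citrate synthase, Cs, averaged 162 CPM in Lung, 301 in Tail and 250 in DRG NCSCs, and between 551 and 845 in the other groups. In Tail-pNSC against Brain-NSC 12 of the 13 were lower and none higher. Glycolytic genes had 15 of 19 higher and 3 lower in Lung-pNSC against Lung (1.39), 14 and 4 in Tail-pNSC against Tail (0.69), and 6 and 12 in NCSCs against brain NSCs, or 7 and 12 without replicate 3. The aldolase gene Aldoc averaged 7.25 CPM in Lung, 16.2 in Tail and 12.7 in NCSCs, against 425 to 1732 elsewhere, and the phosphofructokinase gene Pfkp was on the other side, with 104, 58.5 and 152 CPM against 2.00 to 28.5.

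Of 16 regulators of mitochondrial gene expression, 13 were higher and 2 lower in Lung-pNSC against Lung, 11 and 1 in Tail-pNSC against Tail, and 2 and 8 in NCSCs against brain NSCs, or 3 and 8 without replicate 3. Ppargc1a, the coactivator PGC-1 alpha, averaged 8.76 CPM in Lung, 1.71 in Tail and 5.41 in NCSCs and 45.4 to 138 in the other groups. It rose by 5.16 (SE 0.12) in Tail-pNSC against Tail and by 3.94 (SE 0.07) in Lung-pNSC against Lung, and was at −3.59 (edgeR adjusted p = 4.90e-17) in NCSCs against brain NSCs, or −3.51 without replicate 3. The genes of the factors whose motif letters were counted above varied less in level. Nrf1 group means ran from 37.9 to 68.3 CPM, Gabpa from 77.4 to 132 and Yy1 from 142 to 213.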

How the data were processed

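PolyA-selected RNA of 28 samples in 11 groups was sequenced. Per the labels and the study's methods, single-end reads were aligned with HISAT2 (GRCm38), Cufflinks was run, and the authors deposited raw HTSeq counts of 28244 genes. The samples were taken as 3 sets, fitted apart. After filterByExpr (at least 10 counts, total 15), counts were scaled by TMM and tested with edgeR 4.0.16 (R 4.3.3) quasi-likelihood fits in 12 comparisons, and 2 differences between sets came from a fit of all samples. The fits were tested on simulated data with 200 changed genes. DESeq2 1.42.0, other scalings, filters and sample choices were alternatives. Python 3.11.15 and matplotlib 3.10.9 served for tables and figures. Positions came from GENCODE on GRCm38 (83 of 84 members matched) and promoters from RefSeq GRCm38.p6 (68). The members and lists were chosen with earlier results of these data known. The text could name a fixed list of 29 members, in each comparison the 3 largest rises and 3 largest falls among called members whose groups did not overlap and whose mean was at least 10 CPM, and up to 2 called genes of each other list with the largest changes. Genes outside this rule (Ndufb10, the genes named for a lost call, Nrf1, Gabpa and Yy1) were chosen after their values were seen. Total counts of 9808246 to 22637031 set the precision.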

Additional observations from a re-analysis of the deposited data

Results flagged for a closer look

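In 7 cases the fitted pNSC effect of an isoform gene or of Ndufs5 differed between experiments by 2-fold or more (edgeR, all 28 samples in 1 fit, adjusted over 17393 genes). For Ndufs5, the Wnt1Cre-mTmG effect of tail pNSCs against brain NSCs minus that of the first set was 1.23 (SE 0.10, adjusted p = 9.93e-14), and with the copy BC002163 added it was 0.05 (adjusted p = 0.755). The 6 other values belong to isoforms. Cox6a2 and Cox8b passed the filter only through groups where they were high. They, Cox7a1 and, in Lung-pNSC, Cox6b2 had few counts or none in some groups. Those fitted values depend on the prior count, so no p is given for them and nothing is read from their passing. For lung pNSCs against brain NSCs, the Sox2-GFP effect minus that of the first set was −5.76 for Cox6a2, 2.77 for Cox6b2, −2.79 for Cox7a1 and −6.78 for Cox8b. For tail pNSCs against brain NSCs, the Wnt1Cre-mTmG effect minus that of the first set was 8.32 for Cox6a2, or 3.86 without Brain-NSC replicate 2, and 1.80 for Cox6b2. The Cox6b2 value (SE 0.30, edgeR adjusted p = 3.28e-06) rests on groups that were not near 0, with 2.01 CPM in Tail-pNSC and 2.60 in Brain-NSC. Groups of 2 or 3 replicates were too small for a test of outlying samples.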

How the results depend on the processing

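Of 4540 alternative values for named genes, 4433 kept direction and call, 105 lost the call and 2 reversed: Ndufa11 in Tail-pNSC against Tail with total counts (0.0021) and Ndufs5 in DRG pNSCs against brain NSCs with its copy added (−0.11), an alternative chosen after seeing the data. Of 212 alternative member counts, those at the 2-fold limit left out, 206 stayed within 1.5 times the main count, and all 184 alternative medians kept their sign. No share of all genes called is given beside the alternative counts in this section. The causes of the shifts below were not tested. A 2-fold limit left 11 members in Tail-pNSC against Tail, 8 in Tail against Lung, 0 and 1 in Tail-pNSC and Lung-pNSC against Brain-NSC, 4 and 0 in Wnt1Cre-mTmG Tail and DRG pNSCs against brain NSCs, 14 in NCSCs against brain NSCs, 15 and 11 in Tail and DRG pNSCs against NCSCs and 3 in Sox2-GFP lung pNSCs against brain NSCs. Lung-pNSC against Brain-NSC called 20 members with all 28 samples in 1 fit, and DRG pNSCs against brain NSCs 48 with only the 2 groups.

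The members' median log2 fold change in Tail-pNSC against Tail was 0.42 with DESeq2 and RLE scaling, 0.55 with all samples, 0.44 with only the 2 groups, 0.40 with a stricter filter (mean count 100), 0.66 with total counts and 0.52 with upper-quartile scaling. In Lung-pNSC against Lung it was 1.16 with DESeq2 and RLE, 1.28 with all samples, 1.31 unfiltered, 1.13 with the stricter filter and 1.33 with total counts and upper-quartile scaling. In Tail against Lung it was 0.48 with DESeq2, RLE and all samples, 0.56 unfiltered, 0.50 with the stricter filter and 0.40 with total counts. In Sox2-GFP lung pNSCs against Lung it was 1.04 with DESeq2 and RLE, 1.15 with all samples and only the 2 groups, 1.19 unfiltered, 1.03 with the stricter filter, 1.25 with total counts and 1.18 with upper-quartile scaling, and against brain NSCs 0.0543 with the last. In Tail-pNSC against Brain-NSC it was −0.18 with only the 2 groups and −0.17 with total counts, and in Wnt1Cre-mTmG Tail pNSCs −0.0702 with total counts. In DRG pNSCs against brain NSCs it was −0.11 with RLE, total counts, upper-quartile scaling and no filter and −0.12 with only the 2 groups and the stricter filter. Total counts moved the median of all genes by 0.16 in Tail-pNSC against Tail, −0.13 in Tail against Lung and 0.12 in Sox2-GFP lung pNSCs against Lung.

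Leaving out each replicate in turn, the called members numbered 69 to 71 (medians 0.46 to 0.50) in Tail-pNSC against Tail, 81 to 81 (1.21 to 1.28) in Lung-pNSC against Lung, 72 to 74 (0.54 to 0.57) in Tail against Lung, 48 to 51 (−0.19 to −0.14) in Tail-pNSC against Brain-NSC and 23 to 30 (0.04 to 0.07) in Lung-pNSC against Brain-NSC. They numbered 37 to 42 (−0.04 to −0.00) and 10 to 17 (−0.107 to −0.0805) in Wnt1Cre-mTmG Tail and DRG pNSCs against brain NSCs, 67 to 77 (−0.81 to −0.64) in NCSCs against brain NSCs, 64 to 78 (0.59 to 0.71) and 63 to 76 (0.56 to 0.68) in Tail and DRG pNSCs against NCSCs, 57 to 61 (0.10 to 0.13) in Sox2-GFP lung pNSCs against brain NSCs, 81 to 81 (1.11 to 1.15) against Lung, and 29 to 37 and 41 to 46 for the lung and tail differences between sets.

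Without the 10 most abundant genes of each sample, the members' share was 1.24% in Tail-pNSC, 1.47% in Brain-NSC, 0.828% in Tail, 1.53% in Lung-pNSC, 0.543% in Lung, 1.24% in Sox2-GFP brain NSCs, 1.45% in Sox2-GFP lung pNSCs and 1.37%, 1.51% and 1.41% in Wnt1Cre-mTmG Tail pNSCs, brain NSCs and DRG pNSCs. Same-numbered replicates did not deviate together (correlations −0.016 to 0.052 over 17 pairs of groups), so the numbers were not taken to pair samples. With the replicate block, 63 members were higher and 8 lower in Tail-pNSC against Tail, 76 and 5 in Lung-pNSC against Lung, and 24 and 9 in Lung-pNSC against Brain-NSC, and in all 14 comparisons the count of calls stayed within 1.5 times. Depth limits the isoforms, several of which had 0 to 4 counts in a group.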
